A study of Mus musculus with 24 samples.

Results

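Brca1 was deleted with Cre recombinase in cultured mouse ovarian surface epithelial (mOSE) cells, and the transcriptome was compared with that of the same line given GFP. The comparison used 6 of the 24 libraries of the series, 3 GFP controls and 3 deletion libraries. All 6 came from the line mOSE_BRCA1_fl, which was taken from BRCA fl/fl mice, whose Brca1 alleles carry the sites that Cre cuts. Cells of both groups were infected with an adenovirus, which carried GFP in the control group and Cre in the deletion group, and were grown as monolayers with serum, insulin-transferrin-selenium supplement and EGF. The labels give neither the floxed exons, the age of the mice, the time between infection and RNA collection, nor whether replicates were separate infections. The p-values below therefore measure the spread between these libraries, which may be technical. All genes of the table were members, 35688 in number, and 12775 of them reached 1 scaled TPM in 3 or more of the 6 libraries and were tested. Scaled TPM is TPM, an abundance corrected for transcript length, multiplied by a factor per library in the authors' processing. Values of a gene are listed in the order of replicates 1, 2 and 3, and fold changes are deletion minus control on the log2(scaled TPM + 1) scale with their standard error (n = 3 libraries per group).

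BRCA1 is a tumour suppressor that works with BARD1, PALB2 and BRCA2 in homologous recombination, the repair of DNA double-strand breaks from a sister copy, and in the protection of stalled replication forks. Inherited BRCA1 mutations raise the risk of ovarian and breast cancer. The ovarian surface epithelium is the mesothelial layer around the ovary. It expresses both keratins and mesenchymal genes, and is opened and repaired at each ovulation.

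The labelled cell type was compared with markers of it and of other cell types. Transcripts of Wt1, a transcription factor of the mesothelium and gonad, stood at 441, 764 and 285 in the controls and 498, 547 and 424 after deletion. The mesothelial surface gene Upk3b had 635, 869 and 437 in the controls and 888, 880.4 and 806 after deletion. Both were abundant in every library, with overlapping groups. The E-cadherin gene Cdh1 did not pass 0.387 in any library. Among 22 leukocyte markers 3 were tested, and the pan-leukocyte gene Ptprc was at most 0.223. Those tested were Itgax, Cd68, at 4.06 to 17.8 over the libraries, and Csf1r, at 3.86 to 8.85. Of 16 endothelial markers 6 were tested. The endothelial cadherin gene Cdh5 was at most 0.0234, but Esam stood at 41.4 to 64.7 and Robo4 at 4.23 to 18.8 over the libraries. Of 20 ovarian stroma and fibroblast markers 12 were tested. Dcn stood at 340 to 904 and Col3a1 at 103 to 208, while Pdgfra was at most 2.35. Of 16 oviductal epithelium markers, which also include Wt1, 6 were tested. Folr1 stood at 326 to 764, while Pax8 was at most 0.82. These markers therefore do not single out the labelled cell type. Summed scaled TPM per library was 1217651, 796668 and 1810667 in the controls and 819962, 823502 and 843146 after deletion. The depth in reads is unknown, so no counting interval is given.

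The deleted gene itself was examined first. Brca1 (ENSMUSG00000017146, chromosome 11, 101488764 to 101551955 on GRCm38, protein-coding) had a scaled TPM of 4.27, 12.3 and 3.66 in the controls and 5.34, 11.1 and 4.09 after deletion. The second library of each group was the highest, and the groups overlapped (log2 fold change 0.087 ± 0.50, limma adjusted p = 0.904). The difference was negative after centring by transcript length (-0.635) and in the authors' deposited table (-0.232 on the log2 scale, q = 0.807). It is a value for the whole gene, not for the floxed exons, and so does not check the labels, which state that the deletion was checked before RNA was collected. Below, "after deletion" means the libraries labelled as deleted. Among genes of partner proteins, the groups also overlapped for Bard1 and Palb2, but not for Brca2, whose values are given below with the repair genes. Bard1 had 2.2, 3.54 and 2.03 in the controls and 1.68, 3.97 and 0.902 after deletion and Palb2 6.06, 5.9 and 5.32 in the controls and 3.6, 6.86 and 3.63 after deletion, again with the second deletion library highest in its group.

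The control libraries were not alike. On log2 values, controls 1 and 3 correlated at r = 0.979 and the 3 deletion libraries at 0.964 to 0.985. Control 2 correlated at 0.917 and 0.866 with controls 1 and 3, but at 0.923 to 0.935 with the deletion libraries. Controls 1 and 3 correlated at only 0.797 to 0.872 with the deletion libraries. These correlations are across genes, which share library and depth, and are given as a description. Transcript length moved with this split. In the shortest of 10 length classes (longest transcript of 69 to 1072 bases), controls 1 and 3 lay a median of 1.05 above control 2 on the log2 scale, and in the longest class (6684 bases and more) they lay 1.04 below it. The deletion libraries differed from control 2 by -0.05 to 0.06 in all 10 length classes. Against controls 1 and 3 they ran from -1.01 in the shortest class to 1.08 in the longest. The share of all signal taken by 34 cytosolic ribosomal protein genes, whose transcripts are short, was 8.98%, 4.28% and 9.18% in the controls and 4.55%, 4.95% and 3.89% after deletion. How far length, or the difference among controls, accounts for single results was not tested, and the labels give no batch. The lists below are therefore given with their counts when 1 library is left out. Calls lost when values are centred within transcript-length classes, an alternative chosen after the data were seen, are stated for the genes named.

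**Figure D1:**
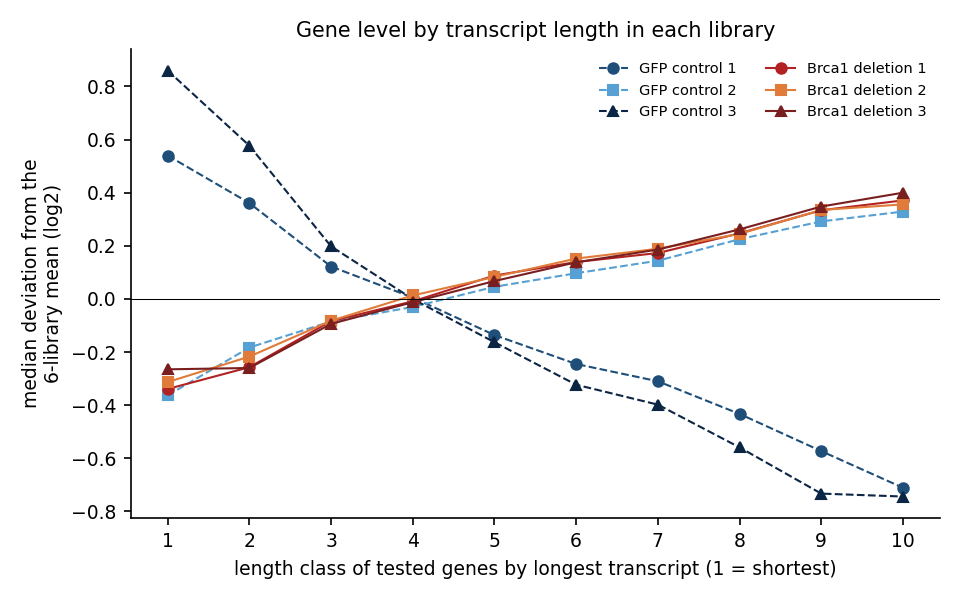
Median deviation of gene levels from the 6-library mean (log2, vertical axis) in 10 classes of genes ordered by their longest transcript (horizontal axis, about 1258 genes each), with 1 line per library. GFP controls 1 and 3 fall from left to right, while GFP control 2 runs with the 3 deletion libraries.

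With all 6 libraries, 1828 of 12775 genes passed limma's test at an adjusted p under 0.05 (14.3%). Of these, 1155 were higher after deletion (9.04% of tested genes) and 673 were lower (5.27%), and 1601 differed at least 2-fold. The number depended on single libraries. It was 8420 without control 2, 284 without control 1, 685 without control 3, and 307, 649 and 444 without deletion library 1, 2 or 3. Of all tested genes, 5741 (44.9%) had groups that did not overlap. Higher genes made up 63.2% of calls on the deposited values, 80.3% (705 against 173) after scaling to equal sums and 52.3% (1300 against 1185) after centring by transcript length. The median fold change of all tested genes was 0.17 as deposited and 0.63 with equal sums.

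A set of 262 genes (2.05% of those tested) was called with all 6 libraries and again without each of them, and these are called stable here. Of these, 192 were higher after deletion (1.5%) and 70 lower (0.548%). At least 4-fold differences were seen in 198, of which 143 were higher and 55 lower. After centring by transcript length 255 of the 262 were still called in the same direction. All 259 that the authors' deposited table lists had a q-value under 0.05 and the same sign there. Of the 1805 called genes listed there, stable or not, 1592 did so. That table tests the same comparison on the same libraries, so it is not an independent check of the stable genes. The median longest transcript was 3296 bases for the stable higher genes and 2420 for the stable lower genes, against 3229 for all tested genes. Of the 176 called genes chosen for naming, 47 were stable, and 48 kept the call without control 1, 51 without deletion library 1, 67 without deletion library 3, 77 without deletion library 2, 94 without control 3 and all 176 without control 2.

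**Figure D2:**
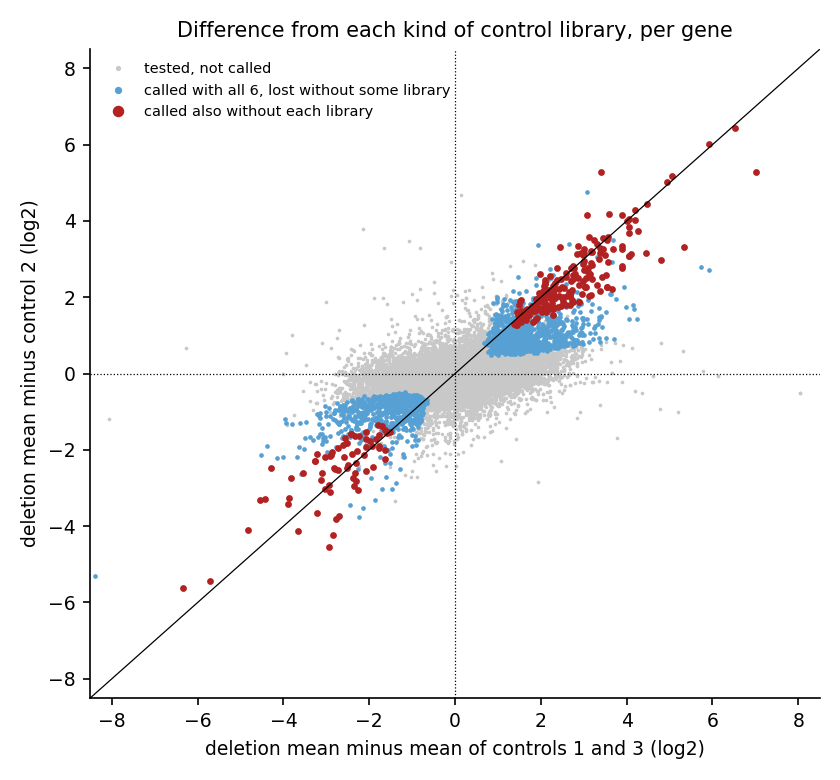
Each point is 1 of the 12775 tested genes, placed by the mean of the deletion libraries minus the mean of GFP controls 1 and 3 (horizontal, log2) and minus GFP control 2 (vertical, log2). The line marks equal differences. The 1566 called genes that are not stable are blue. The 262 stable genes are red.

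The largest increases included genes of several secreted proteins. Igfbp5 (chromosome 1, 72857932 to 72874884), which encodes a secreted binding protein of insulin-like growth factors, stood at 613, 522 and 1286 after deletion against 6.88, 7.64 and 7.27 in the controls (log2 fold change 6.50 ± 0.35, limma adjusted p = 0.000526). Smoc2, which encodes a secreted calcium-binding matrix protein, had 389.9, 355 and 355 after deletion against 2, 8.38 and 1.68 in the controls (log2 fold change 6.44 ± 0.47, limma adjusted p = 0.00112). Scg5 (chromosome 2, 113776362 to 113829121), the chaperone of a neuroendocrine prohormone convertase, had 175, 174 and 191 after deletion against 1.79, 1.79 and 2.2 in the controls (log2 fold change 5.95 ± 0.20, limma adjusted p = 0.000118). In all these genes every deletion library lay far above every control. Control 2 was close to the other controls for Igfbp5 and Scg5 and above them for Smoc2.

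Genes of receptors and enzymes were also among the largest increases. Ndrg2 had 276, 169 and 398 after deletion against 5.53, 25.6 and 5.57 in the controls (log2 fold change 4.67 ± 0.60, limma adjusted p = 0.00551), with control 2 the highest control. Lipg, which encodes endothelial lipase, rose by 4.19 ± 0.53, the orphan receptor gene Gprc5c by 4.14 ± 0.31 and the neuronal tyrosine phosphatase gene Ptpn5 by 4.09 ± 0.26. The kinase gene Hunk rose by 4.06 ± 0.26 and Lrrc2 by 4.02 ± 0.41. Myl7, the regulatory light chain of atrial myosin, had 50.2, 83.2 and 36.3 after deletion against 3.47, 0.4 and 4.92 in the controls (log2 fold change 4.03 ± 0.58, limma adjusted p = 0.00778). Here control 2 was the lowest control. Fam19a5, a secreted neural protein gene outside the naming rule and chosen after its values were seen, was listed at 0 in all 3 controls and at 9.94, 17.9 and 7.17 after deletion. It was 1 of 2 genes that were below 0.1 in every control and at least 5 in every deletion library, and no gene showed the opposite pattern.

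Transcription factor genes were among the stable increases. Sox6, of the SOX family, had 21.2, 22.9 and 16.2 after deletion against 0.248, 0.0765 and 0.0611 in the controls (log2 fold change 4.21 ± 0.23, limma adjusted p = 0.000542). Glis3, a zinc-finger factor of the GLI-similar family, had 22.1, 19.9 and 24.7 after deletion against 0.446, 0.299 and 0.679 in the controls (log2 fold change 3.98 ± 0.23, limma adjusted p = 0.000594). Emx2, a homeobox gene of the developing gonad and urogenital tract, had 33.9, 24 and 29.5 after deletion against 5.22, 4.77 and 6.87 in the controls (log2 fold change 2.19 ± 0.25, limma adjusted p = 0.00399). Sox6 and Glis3 were under 1 in every control, and the groups were well apart for each of these genes.

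Further stable genes outside the naming rule were chosen after their values were seen. Camkk2, a kinase that activates AMPK, had 175, 163 and 211 after deletion against 13.9, 37.2 and 15.9 in the controls (log2 fold change 3.11 ± 0.38, limma adjusted p = 0.00468). Map2k1, the kinase MEK1, had 370.5, 338 and 312 after deletion against 43.5, 67.4 and 25.8 in the controls (log2 fold change 2.97 ± 0.35, limma adjusted p = 0.00436). The secreted stanniocalcin gene Stc2 had 46.5, 53 and 29.4 after deletion against 5.53, 6.03 and 4.75 in the controls (log2 fold change 2.74 ± 0.28, limma adjusted p = 0.00285). Abcb1b, a multidrug efflux pump, had 15.6, 17.5 and 12.6 after deletion against 2.19, 1.93 and 3.38 in the controls (log2 fold change 2.22 ± 0.26, limma adjusted p = 0.00455). In the other direction the forkhead factor gene Foxa2 had 11.1, 19.7 and 7.57 in the controls and 0.448, 0.398 and 0.888 after deletion (log2 fold change -3.05 ± 0.36, limma adjusted p = 0.00418) and the membrane protein gene Tm4sf1 355, 442 and 299 in the controls and 28.1, 20.5 and 66.9 after deletion (log2 fold change -3.37 ± 0.43, limma adjusted p = 0.00551). The groups did not overlap in any of these genes.

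**Figure D3:**
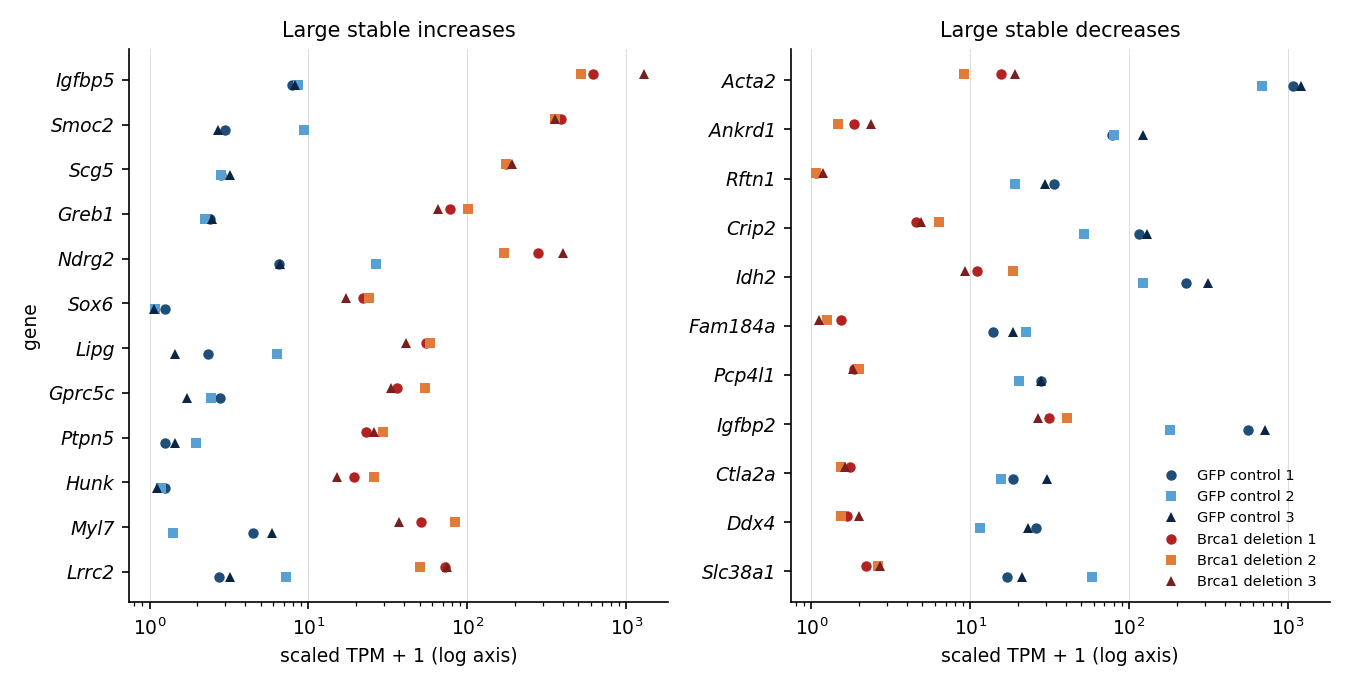
Scaled TPM + 1 on a logarithmic axis in each of the 6 libraries for 12 stable genes with large increases (left) and the 11 stable genes among the 15 largest decreases (right). Blue symbols are GFP controls and red to orange symbols deletion libraries, and the groups do not overlap in any gene shown.

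The largest decrease was in Acta2 (chromosome 19, 34241090 to 34255590), which encodes smooth muscle alpha actin, the actin of contractile cells and myofibroblasts. Its values were 1072, 687 and 1205 in the controls and 14.7, 8.14 and 18.3 after deletion (log2 fold change -6.10 ± 0.36, limma adjusted p = 0.000594). Ankrd1 (chromosome 19, 36111961 to 36120099), an ankyrin-repeat gene widely used as a readout of the coactivators YAP and TAZ, had 77.4, 79.7 and 122 in the controls and 0.86, 0.474 and 1.36 after deletion (log2 fold change -5.63 ± 0.30, limma adjusted p = 0.000526). Every deletion library was far below every control in both genes. Their upstream sequences are shown because these genes fell furthest and each belongs to a group of targets described below. The 250 bases before the RefSeq gene start on GRCm38.p6 are given 5′ to 3′ on the gene's strand. The gene spans above are from GENCODE, whose starts differ from those of RefSeq. The Acta2 window therefore lies mostly, and the Ankrd1 window wholly, inside the span given. In Acta2 capitals mark matches to the CArG box, the binding motif of serum response factor (SRF), with 1 base of its centre free. In Ankrd1 capitals mark GGAATG, a core of TEAD factor motifs.
Acta2, chr19:34255374-34255623, minus strand: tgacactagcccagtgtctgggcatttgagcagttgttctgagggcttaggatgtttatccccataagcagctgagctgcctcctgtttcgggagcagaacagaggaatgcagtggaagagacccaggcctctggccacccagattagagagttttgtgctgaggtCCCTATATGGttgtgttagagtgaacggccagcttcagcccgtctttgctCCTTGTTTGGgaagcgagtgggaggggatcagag
Ankrd1, chr19:36119845-36120094, minus strand: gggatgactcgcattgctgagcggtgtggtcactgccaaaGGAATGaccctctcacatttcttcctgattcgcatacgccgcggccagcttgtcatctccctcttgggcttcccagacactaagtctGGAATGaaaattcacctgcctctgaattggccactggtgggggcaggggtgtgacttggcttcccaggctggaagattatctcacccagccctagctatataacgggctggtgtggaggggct
The Acta2 matches, CCCTATATGG and CCTTGTTTGG, lie 84 to 75 and 34 to 25 bases before the RefSeq start. Among 27018 genes with a promoter, 9.77% held such a match on either strand in the same window. The Ankrd1 matches lie 210 to 205 and 123 to 118 bases before the RefSeq start, and 14.4% of genes held GGAATG there on either strand. A match is a description of the sequence and not evidence of binding.

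Further large decreases were in genes of varied function. Rftn1, which encodes a lipid raft protein, had 32.9, 18.1 and 28.5 in the controls and 0.0711, 0.0727 and 0.192 after deletion (log2 fold change -4.59 ± 0.28, limma adjusted p = 0.000681). The LIM-domain gene Crip2 had 114, 51.4 and 128 in the controls and 3.59, 5.36 and 3.87 after deletion (log2 fold change -4.14 ± 0.38, limma adjusted p = 0.00222). Idh2, the mitochondrial NADP-dependent isocitrate dehydrogenase, had 228, 121 and 313 in the controls and 9.99, 17.6 and 8.34 after deletion (log2 fold change -4.05 ± 0.42, limma adjusted p = 0.00278). Control 2 was the lowest control for each, and every deletion library was still well below it. Igfbp2, another binding protein of insulin-like growth factors, had 564, 182 and 717 in the controls and 30.5, 40 and 25.8 after deletion (log2 fold change -3.69 ± 0.51, limma adjusted p = 0.0072), the reverse of Igfbp5. The glutamine transporter gene Slc38a1 had 16, 57.7 and 20.3 in the controls and 1.21, 1.62 and 1.69 after deletion (log2 fold change -3.47 ± 0.47, limma adjusted p = 0.00634). Further stable decreases were Fam184a (-3.81), Pcp4l1 (-3.73), Ctla2a (-3.66) and Ddx4 (-3.47). Ddx4 encodes a germ-cell RNA helicase and had 25, 10.6 and 22.2 in the controls and 0.682, 0.538 and 0.988 after deletion. Of 15 oocyte markers it was the only one tested, and the egg coat gene Zp2 and the germ-cell gene Dazl were at or near 0.

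The calls of other large decreases were lost in some fits without 1 library, although their groups did not overlap. The actin-binding protein gene Nexn had 77.6, 20.3 and 157 in the controls and 4.56, 4.2 and 2.9 after deletion and was called in 2 of the 6 fits without 1 library. Crip1, which had 1220, 406 and 1985 in the controls and 82.5, 76.5 and 102 after deletion, and the metallothionein gene Mt1, which had 131, 46.5 and 208 in the controls and 9.21, 12.5 and 7.01 after deletion, were each called in 3 of them. The histone gene Hist1h2ap had 1663, 389 and 2880 in the controls and 85.7, 300.5 and 43.9 after deletion and was called in 1, without control 2. In all 4 genes control 2 lay between the other controls and the deletion libraries. Hist1h2ap has near-identical copies, so its level is uncertain.

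Abundant genes were also called. Among those that fell, Actb, cytoplasmic beta actin, had 3492, 2489 and 4606 in the controls and 1013, 1209 and 1092 after deletion (log2 fold change -1.63 ± 0.40, limma adjusted p = 0.0418). The intermediate filament gene Vim had 2418, 1317 and 2869 in the controls and 559.9, 638 and 443 after deletion (log2 fold change -1.95 ± 0.40, limma adjusted p = 0.0269). Actin-regulating Tmsb4x, Tmsb10 and Pfn1 fell by 2.85, 3.04 and 2.38 on the log2 scale. Each of these 5 calls was kept in 1 of the 6 fits, the one without control 2, although the groups did not overlap. Among abundant genes that rose, the collagen-binding Aebp1 had 916, 933 and 857 after deletion against 285, 402 and 320 in the controls (log2 fold change 1.44 ± 0.27, limma adjusted p = 0.0198) and the cytoskeletal adaptor Obsl1 619, 669 and 589 after deletion against 220, 272 and 272 in the controls (log2 fold change 1.30 ± 0.24, limma adjusted p = 0.0198). The Obsl1 call was lost after centring by length (0.70, limma adjusted p = 0.101). Each of these calls was kept in 2 of the 6 fits. Gm44245 and CAAA01144662.1, also among the 5 most abundant higher genes, carry only model names.

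Among the genes that the series follows, Ly6a rose. Ly6a (chromosome 15, 74994877 to 74998031), the surface antigen Sca-1 of progenitor cells, had 11, 5.63 and 8.41 after deletion against 0.515, 0.948 and 0.926 in the controls (log2 fold change 2.35 ± 0.28, limma adjusted p = 0.00468), and was stable. Snai1, the repressor of epithelial genes, had 1.72, 1.55 and 2.07 in the controls and 0.583, 0.224 and 1.16 after deletion and did not pass (log2 fold change -0.78 ± 0.25, limma adjusted p = 0.0708), although the groups did not overlap. In the authors' deposited table Snai1 was lower after deletion (-2.01 on the log2 scale, q = 0.0208). Tgfb1 had 23.6, 32.7 and 26 in the controls and 31, 21.5 and 55.5 after deletion (limma adjusted p = 0.548). Ptgs2, cyclooxygenase 2, had 2.45, 8.02 and 1.3 in the controls and 7.94, 3.13 and 28.1 after deletion (limma adjusted p = 0.228). The third deletion library was the highest in Tgfb1 and Ptgs2, and both groups overlapped.

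Gene lists are described by their counts and medians, beside 9.04% of all tested genes called higher, 5.27% called lower and a median of 0.17. List counts without control 2 stand beside 5093 of all 12775 tested genes called higher and 3327 called lower in that fit. Without each of the others, 203 to 468 of all tested genes were called higher and 76 to 227 lower. Of 19 stemness genes tested, 6 rose and 2 fell (median 0.48). Ly6e, a relative of Ly6a, had 276, 314 and 259 after deletion against 43.9, 47.3 and 35.9 in the controls (log2 fold change 2.72 ± 0.22, limma adjusted p = 0.00153) and was stable. Klf4, a pluripotency factor, had 30.9, 14.9 and 28.6 after deletion against 5.59, 11.8 and 7.01 in the controls (log2 fold change 1.49 ± 0.38, limma adjusted p = 0.0451), a call made in 1 of the 6 fits without 1 library. Cd44, the hyaluronan receptor, fell, with 16.5, 41.5 and 11.4 in the controls and 2.45, 2.17 and 1.82 after deletion (log2 fold change -2.74 ± 0.45, limma adjusted p = 0.0126), a call made in 2 of them. The retinaldehyde dehydrogenases moved in opposite directions. Aldh1a1 fell, with 509, 324 and 503 in the controls and 179.8, 197 and 164 after deletion (log2 fold change -1.27 ± 0.27, limma adjusted p = 0.0297), and Aldh1a2 rose, with 42.2, 58.9 and 32.9 after deletion against 19.7, 14.9 and 17.5 in the controls (log2 fold change 1.28 ± 0.27, limma adjusted p = 0.0296). The Aldh1a1 and Aldh1a2 calls were each made in 1 of the 6 fits without 1 library. The calls of this list numbered 9 higher and 4 lower without control 2, and 2 higher and 0 to 1 lower without each of the others.

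Of 24 genes of the ovarian surface and mesothelium tested, 6 rose and 1 fell (median 0.69, and 0.55 after centring by length). Msln, the mesothelial surface protein mesothelin, had 233, 139.5 and 266 after deletion against 66.5, 58 and 120.4 in the controls (log2 fold change 1.40 ± 0.37, limma adjusted p = 0.0486). Gata4, a gonadal transcription factor, had 246, 284 and 219.8 after deletion against 114, 163 and 103 in the controls (log2 fold change 0.99 ± 0.26, limma adjusted p = 0.0468), and Bnc1, basonuclin, 124, 96.4 and 143 after deletion against 32.6, 73.2 and 20.6 in the controls (log2 fold change 1.68 ± 0.45, limma adjusted p = 0.049). Controls 1 and 3 lay below control 2 in Gata4 and Bnc1, and all deletion libraries lay above. The number that rose was 2 without control 1, 3 without control 3, 12 without control 2 and 2 without each of the deletion libraries in turn. The genes called in all of these fits were Igfbp5 and Emx2.

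Genes of oestrogen signalling and of steroid metabolism were among the calls. Greb1 (chromosome 12, 16670615 to 16800886), a cofactor and a classic target of the oestrogen receptor, had 76.5, 100.1 and 64.6 after deletion against 1.38, 1.23 and 1.47 in the controls (log2 fold change 5.09 ± 0.25, limma adjusted p = 0.000526). Esr1, oestrogen receptor alpha, had 11, 22.8 and 7.84 after deletion against 0.423, 1.38 and 0.75 in the controls (log2 fold change 2.91 ± 0.41, limma adjusted p = 0.00741) and was called in 5 of the 6 fits without 1 library. Every deletion library was above every control for both. In the list of steroid synthesis and receptor genes, 4 of 14 tested rose and 1 fell (median 0.48), with 6 higher and 2 lower without control 2, and 2 to 3 higher and 0 to 1 lower without each of the others. Hsd17b11, a 17-beta-hydroxysteroid dehydrogenase, had 27.5, 23.3 and 35.3 after deletion against 3.58, 6.69 and 3.28 in the controls (log2 fold change 2.46 ± 0.31, limma adjusted p = 0.00551). Star, which moves cholesterol into mitochondria, had 118, 128 and 131 after deletion against 57.3, 71.2 and 44.5 in the controls (log2 fold change 1.13 ± 0.24, limma adjusted p = 0.0276), and Akr1c14, a hydroxysteroid dehydrogenase, fell to 10.3, 13.7 and 7.88 after deletion against 41, 50.4 and 34.1 in the controls (log2 fold change -1.89 ± 0.28, limma adjusted p = 0.00825). The glucocorticoid receptor gene Nr3c1 had 7.01, 37.7 and 5.99 in the controls and 52, 37.1 and 65.3 after deletion and did not pass (limma adjusted p = 0.0715), with control 2 inside the range of the deletion libraries. Of 7 granulosa and theca markers tested, 3 rose and none fell, Star among them, with 5 higher and 0 lower without control 2, and 0 to 1 higher and 0 lower without each of the others. Inha, inhibin alpha, rose by 1.82 and the anti-Müllerian hormone receptor gene Amhr2 by 1.26, while the gonadotropin receptor genes Fshr and Lhcgr were at most 0.126. The summed level of 16 such markers was 299 to 416 in the controls and 775 to 793 after deletion. Most of this sum came from Amhr2, Inha and Star, the called genes, in every library. The part of this sum in the other results was not tested.

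Of 21 genes of the actin cytoskeleton and SRF targets tested, 9 fell and 0 rose (median -1.02, -0.99 after centring by length and -0.56 with equal sums). After Acta2 the largest decreases were in Tagln2, transgelin 2, with 819.5, 457 and 789 in the controls and 96.8, 108 and 128 after deletion (log2 fold change -2.59 ± 0.30, limma adjusted p = 0.00428), and in the calponins Cnn1, with 82, 73.4 and 64.7 in the controls and 16.4, 13.7 and 18.1 after deletion (log2 fold change -2.12 ± 0.22, limma adjusted p = 0.00272), and Cnn2, with 156, 101 and 172 in the controls and 32.1, 29.7 and 33.5 after deletion (log2 fold change -2.10 ± 0.26, limma adjusted p = 0.0047). Acta2 and these 3 genes were stable, and the groups were well apart in each. Enteric smooth muscle actin Actg2 had 34.2, 24.3 and 41.6 in the controls and 8.22, 4.33 and 11.3 after deletion (log2 fold change -1.99 ± 0.37, limma adjusted p = 0.0198). Tagln, a standard smooth muscle marker, had 2041, 1390 and 2208 in the controls and 729, 496 and 976 after deletion and did not pass (limma adjusted p = 0.0559). Srf itself had 30.1, 44.3 and 26.4 in the controls and 28.8, 29.9 and 30.4 after deletion, vinculin (Vcl) 55, 196 and 16.5 in the controls and 90.1, 92.2 and 103 after deletion and tropomyosin Tpm1 2571, 1328 and 2939 in the controls and 1782, 1910 and 2017 after deletion, all with overlapping groups. The 9 decreases became 4 without control 1 or deletion library 1, 5 without control 3, deletion library 2 or deletion library 3, and 14 without control 2. In 18 members with a RefSeq promoter, the CArG match with 1 base free was found in 7, and 3 of those 7, Acta2, Cnn2 and Myl9, were among the genes that fell.

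Of 24 YAP and TEAD target genes tested, 1 rose and 3 fell, with a median of 0.74 (0.28 after centring by length). The counts depended on control 2, with 14 higher and 3 lower without control 2, and 0 to 1 higher and 1 lower without each of the others. Beside Ankrd1, Cyr61, a matricellular target, had 3.5, 3.77 and 6.63 in the controls and 1.59, 1.28 and 1.15 after deletion (log2 fold change -1.23 ± 0.27, limma adjusted p = 0.0322) and the stress gene Gadd45b 114, 61 and 121 in the controls and 34.9, 42.5 and 28.7 after deletion (log2 fold change -1.41 ± 0.32, limma adjusted p = 0.0346). The third common readout, Ctgf, had 0.938, 0.989 and 1.17 in the controls and 2.24, 0.868 and 1.21 after deletion (limma adjusted p = 0.495). The matrix gene Ccdc80 rose, with 45.2, 56.9 and 35.6 after deletion against 18, 15 and 19.2 in the controls (log2 fold change 1.33 ± 0.25, limma adjusted p = 0.02), a call lost after centring by length (0.92, limma adjusted p = 0.0674). GGAATG lay upstream of 8 of 16 members with a promoter.

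Of 7 genes of transcription factors of the epithelial to mesenchymal transition tested, 2 rose and 1 fell (4 higher and 2 lower without control 2, and 1 to 2 higher and 1 lower without each of the others). Twist1, a basic helix-loop-helix factor, fell to 0.0725, 0.0742 and 0.0933 after deletion against 7.38, 3.8 and 6.92 in the controls (log2 fold change -2.66 ± 0.26, limma adjusted p = 0.00269). Snai2, the relative of Snai1 also called Slug, rose to 18.6, 18.5 and 13.2 after deletion against 3.31, 4.09 and 2.77 in the controls (log2 fold change 2.01 ± 0.26, limma adjusted p = 0.00551). Both were stable, with no overlap between groups. Tcf4 rose too, to 40.4, 38.6 and 33.8 after deletion against 7.27, 11.3 and 16.4 in the controls (log2 fold change 1.67 ± 0.31, limma adjusted p = 0.019), called in 2 of the 6 fits and not called after centring by length (0.94, limma adjusted p = 0.11). Zeb1 had 5.66, 11.2 and 3.68 in the controls and 19.3, 10.8 and 15.4 after deletion and Zeb2 11.5, 33.2 and 12.7 in the controls and 29.7, 24.5 and 39.5 after deletion, and neither passed. Control 2 lay within the range of the deletion libraries in both Zeb genes.

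Of 33 mesenchymal and matrix genes tested, 3 rose and 3 fell (median 0.028, -0.50 after centring by length), with 11 higher and 6 lower without control 2, and 1 to 2 higher and 0 to 1 lower without each of the others. The cadherin gene Cdh11 rose, with 176, 125 and 243 after deletion against 19.3, 40.7 and 9.31 in the controls (log2 fold change 3.09 ± 0.51, limma adjusted p = 0.0131), while the protease inhibitor gene Timp1 fell, with 287, 149 and 446 in the controls and 55, 44.6 and 90.7 after deletion (log2 fold change -2.12 ± 0.45, limma adjusted p = 0.0295), and elastic-fibre Fbln5 fell by 1.21 on the log2 scale. The collagen-binding Lum had 2.35, 2.05 and 1.88 after deletion against 0, 0 and 0.142 in the controls, a stable call at a low level. Junction and keratin genes of epithelia gave 3 increases and 3 decreases among 21 tested, with 8 higher and 5 lower without control 2, and 0 to 1 higher and 0 lower without each of the others. The simple keratins Krt8 and Krt18 fell by 1.44 and 1.79, and the claudin gene Cldn3 by 1.44, on the log2 scale. The tight-junction gene Cgn rose by 1.40, the laminin gene Lama3 by 1.40 and desmoplakin (Dsp) by 1.15. Krt8, Krt18 and Cldn3 have shorter transcripts than Cgn, Lama3 and Dsp, and their values after centring by length were -1.19, -1.32 and -0.87, and 0.84, 0.60 and 0.32. The calls of Lama3 and Dsp were lost there (limma adjusted p = 0.235 and 0.253).

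Of 23 TGF-beta and SMAD target genes tested, 4 fell and none rose, while the median was 0.22 as deposited and -0.035 after centring by length. Single libraries changed this picture, with 8 higher and 5 lower without control 2, and 0 higher and 0 to 1 lower without each of the others. Inhba, the activin A subunit, had 1.44, 1.95 and 2.28 in the controls and 0.311, 0.115 and 0.256 after deletion (log2 fold change -1.23 ± 0.20, limma adjusted p = 0.0121). Id3, an inhibitor of differentiation, had 356, 222 and 385 in the controls and 119, 159 and 101 after deletion and fell by 1.33 on the log2 scale. Its relative Id4 had 6.56, 4.86 and 7.53 in the controls and 2.25, 1.9 and 2.23 after deletion and fell by 1.21. Every deletion library lay below every control in both. Klf10 fell by 2.10 on the log2 scale, with control 2 nearest to the deletion libraries. Outside this list, 2 of 12 NOTCH pathway genes fell, Hes1 and Nrarp, both direct targets, by 1.67 and 1.32 on the log2 scale, and the ligand gene Jag2 rose by 1.24. The Jag2 call was lost after centring by length (0.67, limma adjusted p = 0.0664), and the list held 6 higher and 3 lower without control 2, and 0 higher and 0 to 1 lower without each of the others.

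Of 19 WNT targets, receptors and antagonists tested, 7 rose and 1 fell, with a median of 1.21 as deposited and 0.79 after centring by length. Among receptors, the frizzled genes Fzd2, Fzd7 and Fzd1 rose, Fzd2 with 61.5, 91.9 and 55.3 after deletion against 10.7, 19.4 and 9.74 in the controls (log2 fold change 2.33 ± 0.33, limma adjusted p = 0.00745). The R-spondin receptor gene Lgr6 had 12.8, 8.67 and 38.3 after deletion against 0.0544, 0.212 and 0.0373 in the controls (log2 fold change 3.98 ± 0.50, limma adjusted p = 0.00523) and was the stable member. The ligand gene Wnt5a had 41.1, 23.2 and 67.2 after deletion against 2.34, 7.47 and 1.19 in the controls (log2 fold change 3.38 ± 0.58, limma adjusted p = 0.0145). Control 2 was the highest control in each of these, and every deletion library lay above it. Of the feedback targets, Axin2 had 86.5, 73.2 and 90.7 after deletion against 22, 47.3 and 14.4 in the controls (log2 fold change 1.71 ± 0.41, limma adjusted p = 0.04) and Notum, a secreted WNT deacylase, 4.27, 3.76 and 4.33 after deletion against 0.764, 1.1 and 0.774 in the controls (log2 fold change 1.45 ± 0.20, limma adjusted p = 0.00721). Cyclin D1 (Ccnd1), which the list also holds, fell, with 2.81, 2.59 and 2.5 in the controls and 0.734, 0.82 and 0.872 after deletion (log2 fold change -1.01 ± 0.18, limma adjusted p = 0.0186). The increases numbered 1 without control 1, 6 without control 3, 12 without control 2, and 2, 4 and 3 without deletion library 1, 2 or 3.

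Of 27 genes of growth factor ligands, receptors and binding proteins tested, 5 rose and 2 fell (median 0.94, 0.37 after centring by length). The increases included 1 receptor gene and 2 ligand genes of fibroblast growth factor (FGF) signalling. When 1 library was left out there were 16 higher and 2 lower without control 2, and 3 to 4 higher and 1 to 2 lower without each of the others. The receptor gene Fgfr3 had 61.4, 72.1 and 46.8 after deletion against 3.54, 6.07 and 1.89 in the controls (log2 fold change 3.73 ± 0.37, limma adjusted p = 0.00269). The ligand gene Fgf1 had 8.84, 12.8 and 9.76 after deletion against 1.05, 2.26 and 0.732 in the controls (log2 fold change 2.33 ± 0.31, limma adjusted p = 0.00608), and Fgf9 41.1, 30.9 and 32 after deletion against 11.4, 7.24 and 11.9 in the controls (log2 fold change 1.69 ± 0.27, limma adjusted p = 0.0112). Fgfr3 and Fgf1 were stable, and Fgf9 was called in 3 of the 6 fits. Fgf16, outside the list and chosen after its values were seen, had 84.1, 58.6 and 81.1 after deletion against 3.9, 7.89 and 3.14 in the controls (log2 fold change 3.72 ± 0.34, limma adjusted p = 0.00222) and was stable. Igfbp6 fell with Igfbp2, to 61.2, 57 and 72.8 after deletion against 342, 161 and 515 in the controls (log2 fold change -2.25 ± 0.42, limma adjusted p = 0.0198), called in 2 of the 6 fits. Vegfa, the vascular growth factor, rose by 1.94 and Pfkfb3, a regulator of glycolysis, by 2.48, while lactate dehydrogenase gene Ldha fell by 0.97 on the log2 scale. These were the 3 calls among 33 glycolysis and hypoxia genes, which gave 16 higher and 8 lower without control 2, and 0 to 2 higher and 0 lower without each of the others.

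Several genes of the stress response of the endoplasmic reticulum (ER) rose. Herpud1 (chromosome 8, 94386438 to 94395377), which encodes an ER membrane protein of protein degradation, had 421, 241 and 159.8 after deletion against 30.7, 34.2 and 23.4 in the controls (log2 fold change 3.08 ± 0.37, limma adjusted p = 0.00468). Every deletion library was far above every control, and deletion library 1 was the highest. In its upstream sequence, printed because it was the largest stable increase among the stress response genes listed, capitals mark a match to ERSE-II, an ER stress response element made of ATTGG and CCACG with 1 base between them (RefSeq, GRCm38.p6, 5′ to 3′).
Herpud1, chr8:94386179-94386428, plus strand: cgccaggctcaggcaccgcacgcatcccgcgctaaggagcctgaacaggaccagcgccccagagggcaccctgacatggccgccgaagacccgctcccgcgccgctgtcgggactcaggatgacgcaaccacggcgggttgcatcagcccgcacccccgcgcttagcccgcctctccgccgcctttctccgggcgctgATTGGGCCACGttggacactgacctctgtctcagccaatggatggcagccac
The match lies 52 to 42 bases before the start, and 10 of 27018 genes (0.037%) held it on either strand in that window. Of 22 ER chaperone and degradation genes, 5 rose and 0 fell (median 0.89, 0.62 after centring by length). The co-chaperone gene Dnajb9 had 95.3, 55.2 and 53 after deletion against 15.5, 21.1 and 11.6 in the controls (log2 fold change 2.00 ± 0.32, limma adjusted p = 0.0121). Xbp1, a transcription factor of the response, had 204, 163 and 129 after deletion against 61.4, 72.4 and 48.4 in the controls (log2 fold change 1.43 ± 0.26, limma adjusted p = 0.0196). The chaperone gene Hyou1 had 308, 182 and 157 after deletion against 46.6, 96.7 and 22.6 in the controls (log2 fold change 2.11 ± 0.53, limma adjusted p = 0.0432). The master chaperone gene Hspa5 had 2522, 1595 and 996 after deletion against 618, 823 and 444 in the controls and did not pass (log2 fold change 1.38 ± 0.45, limma adjusted p = 0.0708), although every deletion library was above every control. In these 5 genes deletion library 1 was the highest and deletion library 3 the lowest of its group. The increases numbered 0 without control 1 or deletion library 1, 1 without control 3 or deletion library 2, 2 without deletion library 3 and 11 without control 2. The element ERSE, CCAAT and CCACG with 9 bases between them, lay upstream of 8 of 19 members with a promoter, against 0.13% of all genes. The 8 were Hspa5, Hsp90b1, Calr, Canx, Pdia6, Dnajc3, Creld2 and Syvn1, of which Syvn1 passed the test.

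Of 24 integrated stress response genes tested, targets of ATF4 and CHOP among them, 7 rose and none fell (median 0.91, 0.95 after centring by length). The glutathione-degrading Chac1 had 189, 124 and 166 after deletion against 40.8, 44.5 and 31.9 in the controls (log2 fold change 2.00 ± 0.25, limma adjusted p = 0.00523). The secreted hormone gene Fgf21 had 31.6, 13 and 18.9 after deletion against 1.04, 1.36 and 3.14 in the controls (log2 fold change 2.94 ± 0.41, limma adjusted p = 0.00727). These and Herpud1 were stable. Vldlr, the very low density lipoprotein receptor, had 61.8, 55.7 and 48.6 after deletion against 2.9, 15.2 and 1.56 in the controls (log2 fold change 3.36 ± 0.64, limma adjusted p = 0.0209), and Sesn2, sestrin 2, 34, 35.2 and 23.1 after deletion against 10.2, 15.9 and 9.05 in the controls (log2 fold change 1.34 ± 0.30, limma adjusted p = 0.0329). Atf4 itself had 548, 312 and 599.8 in the controls and 498, 455 and 406 after deletion and Ddit3, which encodes CHOP, 181, 70.8 and 311 in the controls and 495, 271 and 167 after deletion, both with overlapping groups. Trib3 had 38.4, 43.3 and 38.6 in the controls and 153, 121 and 48.4 after deletion and did not pass (limma adjusted p = 0.0751). The 7 increases became 3 without control 1, deletion library 1 or deletion library 2, 4 without control 3 or deletion library 3, and 15 without control 2.

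Of 24 cholesterol synthesis genes tested, 7 rose and none fell (median 1.02, 0.75 after centring by length), and 17 had deletion libraries all above the controls, against 26.6% of all tested genes. The steps from squalene on were represented by Sqle, with 185, 200 and 169 after deletion against 56.9, 119 and 39.3 in the controls (log2 fold change 1.5 ± 0.40, limma adjusted p = 0.0479), Lss, with 123, 111 and 124 after deletion against 27.1, 45.3 and 23.4 in the controls (log2 fold change 1.93 ± 0.28, limma adjusted p = 0.00817), and Sc5d, with 309, 281 and 343 after deletion against 59.7, 116 and 42.2 in the controls (log2 fold change 2.21 ± 0.37, limma adjusted p = 0.0141). The deletion libraries lay close together in each. Fdft1, Cyp51, Msmo1 and Acat2 rose by 1.03, 1.25, 1.28 and 1.44. None of the increases was stable. No member was called without control 1 or deletion library 1, 1 without deletion library 3, 2 without deletion library 2, 4 rose without control 3, and without control 2 there were 18 increases and 3 decreases. The sterol element TCACNCCAC lay upstream of 1 of 17 members, Hmgcs1, and of 1.23% of all genes.

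Proliferation genes gave decreases and no increases. Of 36 DNA replication and S phase genes, 12 fell and none rose (median -1.33, -1.46 after centring by length, -0.81 with equal sums). Ccne1, cyclin E1, had 17.1, 12.8 and 19 in the controls and 3.04, 4.45 and 2.29 after deletion (log2 fold change -2.04 ± 0.29, limma adjusted p = 0.00745). Thymidylate synthase (Tyms) had 227, 88 and 237 in the controls and 20.8, 54.6 and 16.5 after deletion (log2 fold change -2.61 ± 0.55, limma adjusted p = 0.0281), and Pcna, the sliding clamp, 677, 427 and 699.5 in the controls and 152, 268 and 152 after deletion (log2 fold change -1.67 ± 0.34, limma adjusted p = 0.0266). Deletion library 2 was the highest deletion library in each. Of 32 mitosis genes 3 fell, Ube2c, Cdca8 and Plk1, and none rose (median -1.32). Mki67, the proliferation marker, had 38.1, 41 and 47.4 in the controls and 13, 29.4 and 7.65 after deletion and did not pass (limma adjusted p = 0.0611), and Top2a, topoisomerase II alpha, had 131, 159 and 134 in the controls and 96.2, 214 and 52.5 after deletion, with deletion library 2 above all controls. The summed level of the 32 mitosis genes was 2872, 2132 and 3140 in the controls and 902, 1915 and 567.1 after deletion. Without deletion library 2, 17 mitosis and 15 replication genes fell. Without control 2 the numbers were 16 and 28, and without any of the other libraries at most 1 gene of either list was called. In these bulk libraries fewer cycling cells and less of these transcripts per cell cannot be told apart.

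Inhibitors of cyclin-dependent kinases were also called. Cdkn1a, the p53-induced inhibitor p21, had 6.49, 4.95 and 5.51 in the controls and 0.696, 0.713 and 0.857 after deletion (log2 fold change -1.92 ± 0.21, limma adjusted p = 0.00324) and was stable. Cdkn2c, the inhibitor p18, fell by 0.98 on the log2 scale and, with Ccnd1, made up the calls among 17 genes of G1 cyclins and inhibitors (4 higher and 7 lower without control 2, and 0 higher and 0 to 1 lower without each of the others). Of 29 p53 target genes, 4 fell and 2 rose (median 0.04), with 8 higher and 9 lower without control 2, and 0 higher and 1 to 4 lower without each of the others. The death-domain gene Pidd1 had 9.74, 8.4 and 11.9 in the controls and 2.27, 3.58 and 2.14 after deletion (log2 fold change -1.60 ± 0.26, limma adjusted p = 0.0126) and Phlda3, an AKT inhibitor, 27.4, 17.4 and 28 in the controls and 7.79, 8.32 and 7.48 after deletion (log2 fold change -1.48 ± 0.26, limma adjusted p = 0.0164). Eda2r fell by 1.16 on the log2 scale. Trp53inp1 and Sesn2 rose, Trp53inp1 with 25.5, 24 and 19.4 after deletion against 3.15, 12.6 and 2.02 in the controls (log2 fold change 2.10 ± 0.54, limma adjusted p = 0.0457). Mdm2 had 36.2, 55.9 and 26.4 in the controls and 62.9, 44.5 and 68.8 after deletion and Bax 222, 109 and 286 in the controls and 133, 112 and 144 after deletion, with overlapping groups. Among 22 apoptosis regulators 3 rose and 2 fell (14 higher and 5 lower without control 2, and 1 higher and 0 lower without each of the others). The BH3-only gene Hrk had 5, 3.21 and 4.08 after deletion against 0.183, 0.526 and 0.311 in the controls (log2 fold change 1.92 ± 0.23, limma adjusted p = 0.00432) and was stable, Bmf rose by 2.16, and Bak1 and Bad fell by 0.88 and 1.23 on the log2 scale.

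Of 31 genes of BRCA1 complexes and homologous recombination tested, 2 fell and none rose (median -0.29 as deposited and -0.58 after centring by length, but 0.22 with equal sums). The number of calls depended on control 2, with 4 higher and 11 lower without control 2, and 0 higher and 0 to 1 lower without each of the others. The nuclease gene Exo1 had 33.7, 24.6 and 47.9 in the controls and 7.33, 19.1 and 5.61 after deletion (log2 fold change -1.76 ± 0.46, limma adjusted p = 0.0471). Rpa2, of the single-strand binding complex, had 64, 40.8 and 61.1 in the controls and 23.3, 30.4 and 18.9 after deletion (log2 fold change -1.16 ± 0.28, limma adjusted p = 0.0401). Brca2 had 12.7, 10.2 and 13.8 in the controls and 6.85, 9.86 and 4.4 after deletion and did not pass. In all of these genes deletion library 2 lay nearest to the controls, as it did for Ccne1, Tyms and Pcna. None of 28 Fanconi anaemia and checkpoint genes was called by limma, the smallest adjusted p being 0.0556 for the histone gene H2afx. At an unadjusted p under 0.05 there were 7, and 3 had a q-value under 0.05 in the authors' deposited table. With control 2 left out, limma called 8 of these genes higher and 6 lower. In that fit 5093 of all 12775 tested genes were called higher and 3327 lower. Without each of the others, 0 were called higher and 0 lower. Of 19 end joining and PARP repair genes tested, 2 rose and 2 fell (median 0.70 as deposited, but -0.10 after centring by length). Lig3 and Parp3 rose by 2.00 and 1.08. Mad2l2, a shieldin subunit, had 44.4, 31.2 and 49.1 in the controls and 18.7, 16.3 and 22.4 after deletion (log2 fold change -1.06 ± 0.26, limma adjusted p = 0.0401), and Polq, the polymerase of theta-mediated joining, 3, 3.56 and 3.98 in the controls and 1.48, 1.96 and 1 after deletion (log2 fold change -0.88 ± 0.24, limma adjusted p = 0.0494). Each of these 4 calls was made in 1 of the 6 fits without 1 library, and the list held 10 higher and 5 lower without control 2, and 0 higher and 0 lower without each of the others.

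Of 15 interferon response genes, 2 rose and 1 fell (7 higher and 5 lower without control 2, and 0 to 1 higher and 0 lower without each of the others). Oasl2 had 3.33, 5.92 and 4.48 after deletion against 0.898, 0.646 and 0.844 in the controls (log2 fold change 1.61 ± 0.24, limma adjusted p = 0.00925), called in 5 of the 6 fits, Stat2 rose by 1.74, and Isg15 had 2.22, 1.8 and 4.22 in the controls and 0.52, 1.01 and 0.35 after deletion (log2 fold change -1.17 ± 0.30, limma adjusted p = 0.0451). The Isg15 call was made in 1 of the 6 fits and was lost after centring by length (-0.35, limma adjusted p = 0.365). A pair of interferon-inducible GTPase genes outside the list, chosen after their values were seen, fell and were stable. Irgm1 had 55.3, 73 and 46 in the controls and 11.7, 12 and 14 after deletion (log2 fold change -2.10 ± 0.24, limma adjusted p = 0.00411). Ifi47 had 16.1, 19.8 and 18.2 in the controls and 1.21, 1.11 and 1.96 after deletion (log2 fold change -2.98 ± 0.24, limma adjusted p = 0.00164). In the sensing of cytosolic nucleic acids 3 of 13 genes fell and none rose (3 higher and 8 lower without control 2, and 0 higher and 0 to 1 lower without each of the others). Rnaseh2a, a subunit of the enzyme that removes RNA from DNA, had 210.5, 78.3 and 305 in the controls and 27.6, 33.9 and 25.3 after deletion (log2 fold change -2.54 ± 0.48, limma adjusted p = 0.0206). The DNA sensor gene Aim2 and the nucleotide hydrolase gene Samhd1 fell by 1.24 and 1.06 on the log2 scale. Of 15 genes of chemokines, cytokines and receptors 3 rose and 2 fell (4 higher and 5 lower without control 2, and 1 to 4 higher and 0 to 2 lower without each of the others). Cxcl14 was the stable member, with 4.07, 4 and 2.84 after deletion against 0.694, 0.242 and 0.539 in the controls (log2 fold change 1.64 ± 0.23, limma adjusted p = 0.00736). Il34, a ligand of the receptor Csf1r, fell by 1.31 on the log2 scale, and the receptor subunit gene Il4ra rose by 1.91. Complement genes gave 2 increases and 1 decrease among 12 (5 higher and 3 lower without control 2, and 1 to 2 higher and 0 lower without each of the others). Cfi, complement factor I, had 28.9, 25.8 and 26.3 after deletion against 2.82, 6.66 and 2.68 in the controls (log2 fold change 2.56 ± 0.33, limma adjusted p = 0.00577) and was stable, C2 rose by 1.51 and the inhibitor gene Cd59a fell by 1.24 on the log2 scale. Itgax, a leukocyte integrin, was called at a low level, with 2.06, 2.11 and 2.06 after deletion against 0.115, 0.266 and 0.167 in the controls, while Ptprc stayed near 0 in both groups.

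**Figure D4:**
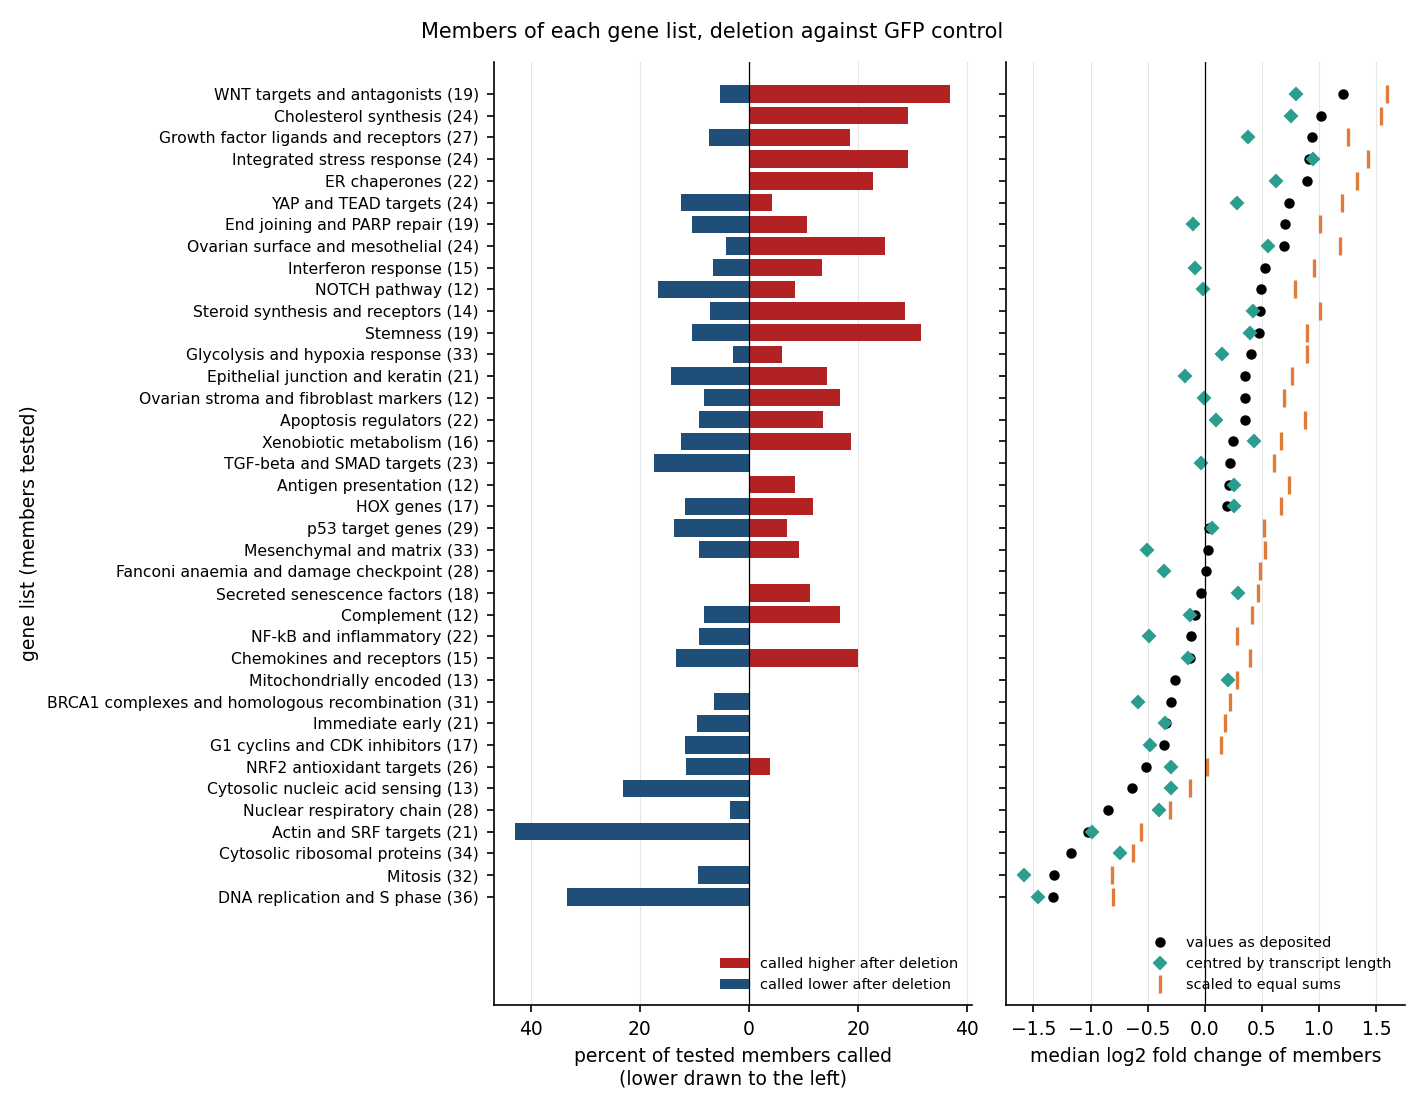
Left, percent of tested members of each gene list called higher (right of 0) or lower (left of 0) after deletion. Right, median log2 fold change of the members on the deposited values, after centring by transcript length and with equal sums. Lists with at least 10 tested members are shown, and the replication, mitosis, actin and ribosomal lists have the 4 lowest medians under all 3 scalings. The WNT list has the highest on the deposited values (1.21).

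Among 17 HOX genes 2 rose and 2 fell (6 higher and 4 lower without control 2, and 0 to 1 higher and 1 lower without each of the others). Hoxd9 fell, with 4.24, 2.79 and 4.17 in the controls and 0.613, 0.47 and 0.422 after deletion (log2 fold change -1.64 ± 0.22, limma adjusted p = 0.00617), and was stable. Hoxd4 fell by 1.54 on the log2 scale, and Hoxc5 and Hoxc6 rose by 1.78 and 1.36. Of 26 antioxidant NRF2 targets Osgin1, Gstp1 and Srxn1 fell by 2.19, 1.73 and 1.31 on the log2 scale and Gsta2 rose by 1.31 (3 higher and 12 lower without control 2, and 0 higher and 0 lower without each of the others). Of 16 xenobiotic metabolism genes 3 rose and 2 fell, Ephx1, the microsomal epoxide hydrolase, with 28.4, 28.3 and 29.7 in the controls and 9.89, 11.2 and 9.52 after deletion (log2 fold change -1.42 ± 0.21, limma adjusted p = 0.0082). That list gave 5 higher and 4 lower without control 2, and 0 to 1 higher and 0 to 2 lower without each of the others. Among 21 immediate early genes Jund and Ier2 fell by 1.15 and 0.83, and among 22 NF-kB and inflammatory genes Bcl3 and Nfkbib fell by 1.31 and 1.27, on the log2 scale. The Ier2 call was lost after centring by length (-0.43, limma adjusted p = 0.124). Immediate early calls numbered 4 higher and 4 lower without control 2, and 0 higher and 0 lower without each of the others, and NF-kB calls 5 higher and 5 lower without control 2, and 0 higher and 0 lower without each of the others. None of 34 cytosolic ribosomal protein genes and none of 13 mitochondrially encoded genes was called by limma, with 5 and 0 at an unadjusted p under 0.05 and 0 of either in the authors' deposited table at a q-value under 0.05, although the ribosomal list had a median of -1.17 (-0.74 after centring by length). With control 2 left out, 33 of the 34 ribosomal genes were called lower, against 3327 of all 12775 tested genes. Leaving out each of the other libraries gave 0 ribosomal calls. For the mitochondrial genes the calls numbered 0 higher and 1 lower without control 2, and 0 higher and 0 lower without each of the others. Rpl11 had 2335, 760.2 and 3292 in the controls and 626, 745 and 598 after deletion, with control 2 close to the deletion libraries and controls 1 and 3 far above them.

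Gene position showed a further pattern. Among genes with a mean of at least 5, the 346 on chromosome 13 had a median deviation from the 6-library mean, relative to all genes, of 0.23, 0.21 and 0.38 in the controls and -0.22, -0.20 and -0.28 after deletion. All 3 controls, control 2 included, lay above all 3 deletion libraries, and groups did not overlap on 16 of the 20 chromosomes examined. The difference of -0.51 was the largest in size among the 20. Of these chromosome 13 genes 57 were called lower and 2 higher, against 5.27% and 9.04% of all tested genes, whatever their mean. After centring by transcript length 96 were called lower and 4 higher, against 1185 and 1300 of all 12584 genes in that fit. Their median there was -0.51 relative to all genes. In the 20-Mb segments of the chromosome the difference ran from -0.25 to -0.84. The next largest differences were -0.32 on chromosome 7, where control 2 lay nearer to the deletion libraries than to the other controls, and -0.29 on chromosome 2. Chromosome 1 stood 0.24 higher. On chromosome 11, which holds Brca1, the difference was 0.09. DNA copy number was not analysed here, and no cause was tested.

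**Figure D5:**
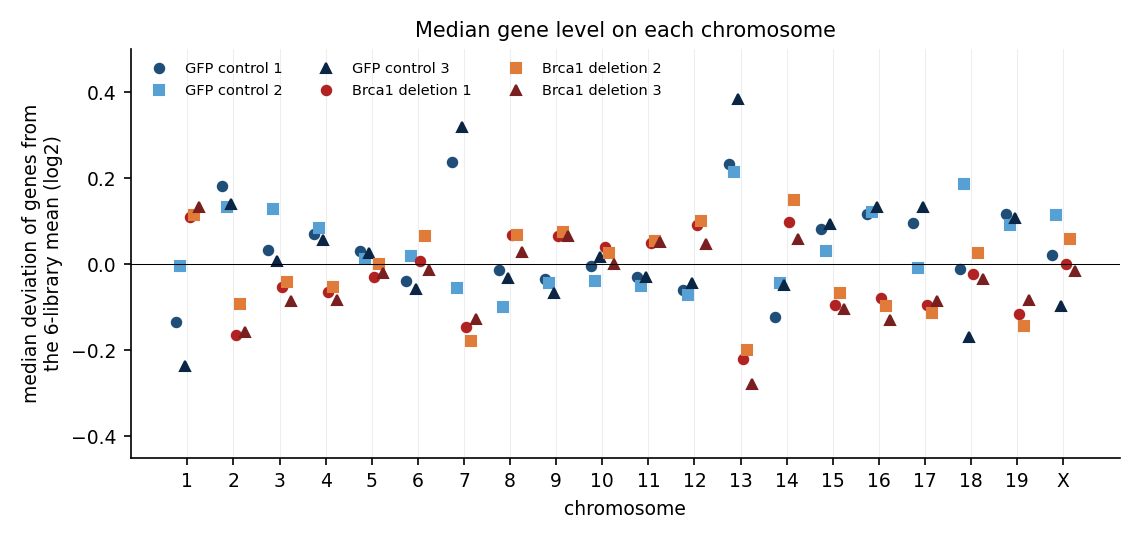
Median deviation of gene levels from the 6-library mean (log2, relative to all genes) on each chromosome, for genes with a mean scaled TPM of at least 5, with 1 symbol per library. On chromosome 13 the 3 GFP controls lie between 0.21 and 0.38 and the 3 deletion libraries between -0.28 and -0.20.

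The genes that set control 2 apart are given as a description, without a test. Park2, which encodes parkin, had 112, 0.614 and 353 in the controls and 2.21, 1.48 and 1.16 after deletion and was the gene furthest below the other controls in control 2. The matrix gene Lrrc17 had 28.8, 4.08 and 222 in the controls and 4.87, 4.93 and 2.75 after deletion and the germ-cell gene Nanos3 6.33, 0.296 and 14.3 in the controls and 5.25, 11.8 and 1.67 after deletion. In the other direction the neuronal factor gene Adnp had 6.99, 57.9 and 2.77 in the controls and 49.2, 45.7 and 52.6 after deletion, the copper pump gene Atp7a 1.71, 22.6 and 0.492 in the controls and 19.5, 21.6 and 18 after deletion and the kinase gene Aak1 3.29, 45 and 2.15 in the controls and 45.7, 45.7 and 45.5 after deletion. Control 2 lay in or near the range of the deletion libraries in all of these except Park2, where it was below them, and Nanos3. Of the 20 genes most different in either direction, 8 are annotated as pseudogenes, whose levels are uncertain because they share sequence with their parent genes.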

How the data were processed

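RNA-seq of 6 libraries of 1 floxed mouse line was analysed, 3 given GFP and 3 given Cre. Per the submitters' processing notes, reads were quantified with kallisto 0.44.0 and tested with sleuth 0.30.0 on GRCm38. The deposited values are a signal, TPM that the authors multiplied by 1 factor per library, since the columns sum to 796668 to 1810667. The authors' deposited table gives p-values and q-values, and a coefficient on the natural log scale that was divided by the natural log of 2 here. The design had planned for TPM, and the same test was kept.

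limma 3.58.1 (R 4.3.3) with a variance trend was fitted to log2(value + 1), with a pseudocount of 1, for genes of at least 1 in at least 3 libraries, two-sided, with Benjamini-Hochberg adjustment over 12775 genes and a threshold of 0.05. The fit was tested on simulated data. Summaries used Python 3.11.15, pandas 2.3.3 and numpy 2.4.6. Gene positions and lengths came from GENCODE M21, which holds 98.1% of the identifiers, and promoters from RefSeq on GRCm38.p6. The read depth is unknown, so low values carry no counting interval.

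The members and gene lists were chosen with earlier results of these data known. Named genes were Brca1, 4 genes that the series follows, the 15 largest called increases and decreases with a gene symbol that is not a model name, the 5 most abundant called genes each way, up to 6 called members of each list by size of change (the 2 with the smallest p where none was called), and the 10 genes each way that set control 2 apart most. Other members of the lists are given as values. Alternatives changed the pseudocount, filter, scaling, variance model, library weights and libraries used. The robust variance prior and the centring within 50 transcript-length classes were chosen after seeing the data. Some genes that the naming rule selects are not reported here.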

Additional observations from a re-analysis of the deposited data

How the results depend on the processing

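The number of called genes, 1828 as reported, was 1091 with no filter on low values, 1050 with a minimum of 5 in 3 libraries, 878 with equal sums, 10342 with library quality weights and 3380 by the q-value of the authors' deposited table, where 44.3% were higher. It ranged from 284 without control 1 to 8420 without control 2 when 1 library was left out. The causes of these moves were not tested. It stayed within 1.5 times the reported number with a pseudocount of 0.1 or 5, median-ratio scaling, no variance trend, a robust variance prior and centring by transcript length (1476 to 2485). Of the 262 stable genes, 190 were called at the minimum of 5, where fewer genes were tested, and 255 to 262 under the other alternatives that refit limma, while 182 were called under all of them. The Brca1 difference, 0.0869, changed sign with median-ratio scaling (-0.0248), centring by transcript length (-0.635), the authors' deposited coefficient (-0.232), and without control 1 (-0.107), control 3 (-0.195) or deletion library 2 (-0.277), and reached 0.563 without control 2. It passed the threshold in none of these fits.

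The labels give both groups the replicate numbers 1 to 3. Deviations of same-numbered libraries from their group means correlated at -0.0534, -0.167 and -0.113, and no library correlated best with its own number. Deviations from a mean of 3 libraries depend on each other, so these values cannot show whether the numbers mark pairs. With the replicate block, 433 genes were called. Among lists with at least 10 tested members, medians of 9, the homologous recombination list among them, were negative as deposited and positive with equal sums, a scaling that moved the median of all genes from 0.17 to 0.63.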
